A study of Homo sapiens with 15 samples.

Results

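The comparison described here set 12Z cells that received siRNA against RSAD2 and then insulin against 12Z cells that received a non-targeting siRNA and vehicle. It used 6 of the 15 RNA-seq libraries of the series, 3 per group, chosen by the siRNA, vector and treatment given in the sample labels. It asked which genes ended near the control level once insulin had followed the knockdown, and which moved further from it. The 12Z line is an immortalised epithelial line from endometriosis outside the uterus, so each group is 1 cell line under transient transfection, and each siRNA was a pool.

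Control cells carried the pool of non-targeting siRNAs and an empty pBabe vector and received vehicle (siNT, libraries 4 to 6). The compared cells carried the siRNA pool against RSAD2 and the same empty vector and received 100 nM insulin (siRSAD2 + insulin, libraries 1 to 3). A middle group with RSAD2 siRNA, empty vector and vehicle (siRSAD2, libraries 1 to 3) splits the path into a first step, the knockdown, and a second step, insulin. Both siRSAD2 groups differ from siNT in library numbers (1 to 3 against 4 to 6) and in the siRNA pool. A difference between those sets of libraries, or pool effects on other genes, cannot be told apart from loss of RSAD2. Knockdown below names the step. All cells were transfected with siRNA by Lipofectamine RNAiMax, then 24 hours later with plasmid by FuGene HD, and after another 24 hours went without serum for 4 hours before insulin or vehicle was given for 24 hours. The remaining 6 libraries, RSAD2 siRNA with PIK3CA H1047R and vehicle or insulin, served as an insulin comparison that shares no library with the others. Insulin was not given here to cells with the non-targeting siRNA, so the effect of insulin without the knockdown was not analysed.

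RSAD2 encodes viperin, a radical SAM enzyme that interferon induces and that restricts viruses. Insulin acts through its receptor and the insulin receptor substrates to activate PI3K and AKT, and AKT keeps FOXO factors out of the nucleus, which lowers transcription of their targets. p53 is a transcription factor that DNA damage and other stress stabilise, and its targets include the cell cycle inhibitor CDKN1A and its own ubiquitin ligase MDM2.

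Gene counts totalled 24.3 to 29.2 M per library with siNT, 26.3 to 29.3 M with siRSAD2 and 16.1 to 24.3 M with siRSAD2 + insulin. Levels are CPM, which are counts per M of TMM-adjusted library size, and differences are log2 fold changes from edgeR with their standard error (SE), called at a Benjamini-Hochberg adjusted p below 0.05. The study's methods describe independent experiments, while the labels name no culture. Library 3 of siRSAD2 stood apart, with 400 genes at more than 3 times their level in every other library, 350 of them pseudogenes. Library 2 of siRSAD2 + insulin differed more from its replicates than other libraries did, with chi-square statistics of 12.5 and 13.6 per degree of freedom, whereas no other pair in the 3 empty-vector groups exceeded 6.52. In library 3 of siRSAD2 + insulin, 5.19% of reads fell outside genes, against 3.35% to 4.11% in the other empty-vector libraries and 4.34% to 5.04% in the H1047R libraries. The part of these libraries in the results was not tested beyond the values without them given below.

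RSAD2 (ENSG00000134321, hg38 chromosome 2, 6865557 to 6898239) had 3.003, 3.16 and 3.69 CPM in the 3 siNT libraries and 0.447, 0.129 and 0.417 CPM in the 3 siRSAD2 + insulin libraries. These levels rest on 84, 88 and 86 counts against 11, 3 and 7, and the groups did not overlap. RSAD2 fell by 3.31 ± 0.44 on the log2 scale (SE, n = 3 per group, edgeR adjusted p = 1.23e-06). The insulin step was -0.02 ± 0.55 (edgeR adjusted p = 0.989).

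CDKN1A (ENSG00000124762, chromosome 6, 36676460 to 36687337), an inhibitor of cyclin-dependent kinases, had 186, 198 and 184 CPM with siNT, 422, 452 and 419 CPM with siRSAD2, and 687, 562 and 599 CPM with siRSAD2 + insulin. Every library of each step lay above every library of the step before. The overall rise was 1.70 ± 0.06 log2 units (edgeR adjusted p = 2.61e-19), or 3.25-fold, made of 1.19 with knockdown and 0.51 with insulin.

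In the overall comparison 4680 of 23184 genes tested (20.2%) were called, 2120 higher (9.14%) and 2560 lower (11%). A change of at least 2-fold was found for 498 of the higher and 100 of the lower genes, and the median over all genes was 0.02. Among the largest rises at 1 CPM or more on average were KANK3, which had only 4, 4 and 6 counts with siNT and 67, 44 and 38 with siRSAD2 + insulin, and the p53 target CLCA2, a chloride channel accessory protein. CLCA2 had 4.22, 3.70 and 4.08 CPM with siNT and 19.5, 24.2 and 23.5 CPM with siRSAD2 + insulin, a rise of 2.48 ± 0.12 (edgeR adjusted p = 8.53e-16). The largest falls after RSAD2 among the genes chosen by size were FSTL1, a secreted glycoprotein, the complement component C3, the lysosomal membrane protein LAPTM4A and GJA1, the gap junction protein connexin 43. FSTL1 had 603, 641 and 629 CPM with siNT against 143, 134 and 140 CPM with siRSAD2 + insulin, and fell by 2.17 ± 0.05 (edgeR adjusted p = 1.15e-24). GJA1 had 294, 289 and 288 CPM against 87.2, 78.4 and 88.7 CPM. Genes were chosen by size only where the 2 groups did not overlap, so the lack of overlap follows from that choice.

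Each gene called in the first step was then followed through the second. The knockdown called 4530 genes (19.5%), 2276 higher (9.82%) and 2254 lower (9.72%), and insulin after knockdown called 1457 (6.28%), 486 higher (2.1%) and 971 lower (4.19%). Fitted on the compared groups only, insulin called 520, and without library 3 of siRSAD2 it called 947. Of the 4530, 2492 (55.0%) held: insulin did not pass and the overall difference was called on the side of the knockdown. Another 297 (6.56%) ended near control, defined as an insulin call opposite to the knockdown, no overall call, and a 95% interval of the overall difference within 0.32 of 0 on the log2 scale. A set of 218 (4.81%) moved further, with knockdown, insulin and overall calls all in 1 direction. A further 103 were partway back, with an opposite insulin call but an overall call still on the knockdown side, and 47 crossed control, ending called on the other side. For 1237 neither insulin nor the overall difference was called. The other 136 had an insulin call opposite to the knockdown and no call over both steps, but too wide an interval for the near-control definition. Pseudogenes made up 58 of the 136 and 143 of the 1237, against 5 of the 297 near control and 0 of the 218 that moved further. All 58 were among 110 of the 136 that rose first, with medians of 2.77 with knockdown and -3.15 with insulin. The knockdown and insulin steps share the siRSAD2 vehicle libraries with opposite sign, so spread in those libraries moves a gene's 2 steps in opposite directions. Fitted on the 3 empty-vector groups only, 186 genes ended near control and 132 moved further. Without library 3 of siRSAD2, 200 genes ended near control and 128 moved further, and without library 2 of siRSAD2, 135 moved further. Without both libraries that stood apart, an alternative chosen after seeing the data, 197 ended near control and 182 moved further.

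**Figure D1:**
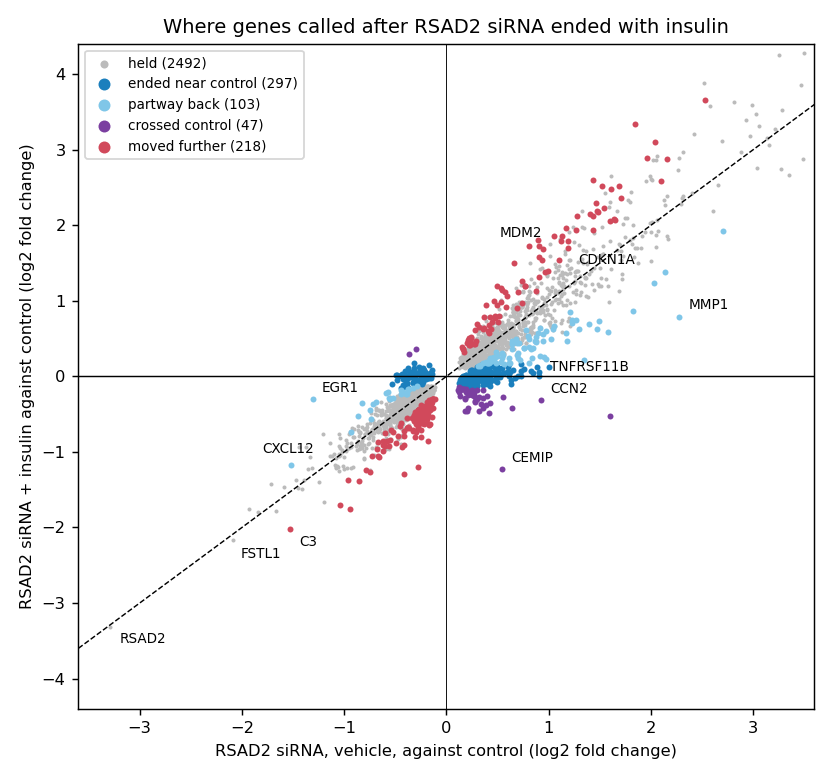
Log2 fold change of RSAD2 siRNA with vehicle against control (horizontal axis) and of RSAD2 siRNA with insulin against control (vertical axis), 1 point per gene, coloured by class with the number of genes in brackets. Genes on the dashed line kept their knockdown difference and genes on the horizontal line were at control. Of the 3157 genes drawn, 32 lie outside the axes.

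Among genes that moved further, 91 rose in both steps and 127 fell in both. The clearest group among the risers was the p53 target list. Of 31 measured members 25 were higher in the overall comparison, 1 was lower and 5 did not pass, with a median of 0.91 against 0.02 for all genes. In the knockdown step 25 were higher and 2 lower, with a median of 0.48, and in the insulin step 19 were higher and 1 lower. A total of 17 members moved further and 8 held. Of all 23184 genes tested, 9.14% were higher over both steps, 9.82% with knockdown and 2.1% with insulin, and 218 moved further. The list was written with earlier results of these libraries known, so its counts describe it and are no independent evidence.

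MDM2 (chromosome 12, 68808177 to 68845544) had 146, 141 and 138 CPM with siNT, 332, 302 and 289 CPM with siRSAD2 and 472, 515 and 486 CPM with siRSAD2 + insulin, with no overlap at either step. Its overall rise was 1.79 ± 0.05 (edgeR adjusted p = 3.27e-21), of which 1.12 came with knockdown and 0.68 with insulin. BTG2, an antiproliferative gene, went from 15.3, 15.6 and 14.2 CPM through 40.6, 43.0 and 38.6 CPM to 60.7, 59.5 and 52.8 CPM, an overall rise of 1.94 ± 0.07. The stress cytokine GDF15 had 6.72, 7.87 and 5.58 CPM, then 20.7, 21.6 and 19.1 CPM, then 30.3, 26.6 and 27.9 CPM, again with no overlap. The death receptor FAS rose by 0.77 and then 0.43, the glycolysis regulator TIGAR by 0.46 and then 0.54, and the ferredoxin reductase FDXR by 0.50 and then 0.45. BAX and PMAIP1, which act at mitochondria in apoptosis, held at overall values of 0.33 and 0.37. Exceptions in the list were the kinase PLK2, which ended near control, CCNG1, which fell by 0.27 with knockdown and ended at -0.07, and the DNA polymerase POLK, which was lower at -0.23. The POLK call was lost when any of 4 libraries was left out (siNT 5 or 6, siRSAD2 + insulin 1 or 3).

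Of the 37 measured genes of the ATF4 and amino acid response, 5 moved further, 5 ended near control, 7 held, 5 were called with insulin and over both steps only, and 1 was partway back. Those that moved further were CHAC1, a glutathione-degrading enzyme (0.57 with knockdown, 0.54 with insulin), the mitochondrial folate enzymes MTHFD2 and ALDH1L2, the cystine transporter SLC7A11 and the glycyl-tRNA synthetase GARS1. MTHFD2 held instead without siRSAD2 library 1 or 3 or siRSAD2 + insulin library 3. Those near control were the amino acid transporter genes SLC3A2 (-0.22, then 0.34) and SLC1A5 (0.24, then -0.20), the serine synthesis enzyme PSPH, the secreted hormone STC2 (0.51, then -0.40) and PPP1R15A, a phosphatase subunit that acts on eIF2. SLC7A11 had 29.9, 32.3 and 29.1 CPM with siNT, 45.5, 40.7 and 40.2 CPM with siRSAD2 and 51.6, 52.8 and 51.8 CPM with siRSAD2 + insulin, and its groups did not overlap. Over the list 16 members were higher over both steps, 5 were lower and 16 did not pass, with a median of 0.11. Without siNT library 5, or without siNT library 6, 3 were lower. Among all genes tested, 9.14% were higher and 11% lower over both steps. The serine synthesis enzyme PSAT1 was called only with insulin, from 110, 113 and 119 CPM with siRSAD2 to 157, 157 and 172 CPM with insulin, and ended 0.59 ± 0.05 above control. ATF4 itself held at -0.19.

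Genes that fell in both steps included matrix, cytoskeletal and insulin-repressed genes. TIMP2, an inhibitor of matrix metalloproteases, had 1026, 959 and 976 CPM with siNT, 698, 710 and 694 CPM with siRSAD2 and 583, 514 and 509 CPM with siRSAD2 + insulin, an overall fall of 0.88 ± 0.05 (edgeR adjusted p = 9.18e-15). The intermediate filament gene VIM fell by 0.58 ± 0.04 over both steps, with -0.27 and then -0.31. OLR1, a receptor for oxidised lipoprotein, went from 15.1, 14.8 and 15.02 CPM to 4.11, 4.29 and 5.001 CPM. C3 had 34.7, 44.9 and 39.5 CPM with siNT and 9.68, 9.92 and 9.65 CPM with siRSAD2 + insulin. No library of the 2 groups overlapped for these genes, which for C3 and OLR1 was a condition of their choice by size. Without siRSAD2 library 3 the insulin call of C3 was lost.

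Of 35 measured FOXO targets and insulin-repressed genes, 14 were lower over both steps, 5 were higher and 16 did not pass. Shares over all genes tested were 11% lower and 9.14% higher. List members that moved further down were PIK3IP1, a negative regulator of PI3K, the MYC antagonist MXI1, the cyclin CCNG2 and the receptor gene IGF1R. MXI1 had 60.3, 67.3 and 71.7 CPM with siNT, 46.3, 51.3 and 49.4 CPM with siRSAD2, and 35.4, 35.9 and 32.6 CPM with siRSAD2 + insulin, an overall fall of 0.93 ± 0.07. PIK3IP1 fell by 1.38 ± 0.10 over both steps, of which -0.97 was the knockdown step, and it held instead without siRSAD2 library 3 or siRSAD2 + insulin library 2. Others were called with insulin but not with knockdown. IRS2, an adaptor of the insulin receptor, had 41.2, 41.4 and 41.7 CPM with siNT, 44.9, 45.3 and 42.5 CPM with siRSAD2 and 27.9, 24.0 and 28.7 CPM with siRSAD2 + insulin, where it lay below both other groups. The receptor gene INSR fell by 0.54 and YPEL3 by 0.61 with insulin, while SESN3 rose by 0.71 and PIK3R3, a regulatory subunit of PI3K, by 0.70. PIK3R3 stood at 40.8, 37.4 and 39.3 CPM with siNT and 38.1, 39.6 and 40.6 CPM with siRSAD2, where the groups overlapped, and at 68.2, 59.2 and 65.0 CPM with insulin. KLF9 fell with knockdown, rose with insulin and ended near control after -0.49 and 0.44 (in 6 of 9 fits that left out 1 library). The adaptor IRS1 rose with knockdown, fell with insulin and ended partway back at 0.31.

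Of the 297 genes that ended near control, 213 rose first and 84 fell first. TNFRSF11B, which encodes the decoy receptor osteoprotegerin, had 130, 135 and 125 CPM with siNT, 246, 239 and 244 CPM with siRSAD2 and 125, 137 and 128 CPM with siRSAD2 + insulin. The siRSAD2 libraries lay apart from both other groups, and those 2 groups overlapped. Its overall difference was 0.00 ± 0.05, after 0.90 and -0.90. DKK1, a secreted inhibitor of Wnt signalling, had 287, 299 and 282 CPM with siNT, 532, 532 and 540 CPM with siRSAD2 and 297, 301 and 347 CPM with siRSAD2 + insulin. Its overall difference of 0.12 ± 0.05 did not pass, but it passed without library 1 or library 2 of siRSAD2 + insulin, at 0.16 each (edgeR adjusted p = 0.0205 without library 2). The potassium channel subunit KCNAB1 ended at 0.04 ± 0.05 and the aggrecanase ADAMTS5 at 0.07 ± 0.09. PAPPA, a protease that frees insulin-like growth factors from their binding proteins, had 20.6, 21.5 and 21.4 CPM with siNT and 21.7, 25.6 and 21.7 CPM with siRSAD2 + insulin. Its groups did not overlap, and its overall difference of 0.12 ± 0.07 did not pass (edgeR adjusted p = 0.289). Without library 1 or 3 of siRSAD2 + insulin its interval was too wide for the near-control definition.

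Members of the immediate early and MAPK feedback list were spread over the classes. Of its 37 measured members, 16 were higher and 5 lower with knockdown, 2 were higher and 19 lower with insulin, and overall 5 were higher, 10 were lower and 22 did not pass. Without siNT library 5, siRSAD2 library 3 or siRSAD2 + insulin library 1, 3 were higher overall. A total of 7 ended near control, against 1.28% of all genes tested, 4 held, 3 moved further, 3 were partway back, 3 were called with insulin and over both steps only, and 1 crossed control. For all genes the shares were 9.82% higher and 9.72% lower with knockdown and 2.1% and 4.19% with insulin. Over both steps they were 9.14% and 11%. The 7 near control were the inhibitors SPRY1, SPRY2 and SPRY4, the ERK phosphatases DUSP4 and DUSP6, and the transcription factors FOSL1 and ETV5. SPRY1 had 13.6, 13.95 and 12.0 CPM with siNT, 24.0, 25.4 and 24.8 CPM with siRSAD2 and 13.6, 12.8 and 14.8 CPM with siRSAD2 + insulin. Only the siRSAD2 libraries lay apart. DUSP6 had 71.1, 76.1 and 78.5 CPM with siNT, 117, 123 and 120 CPM with siRSAD2 and 72.1, 77.8 and 73.2 CPM with siRSAD2 + insulin, and FOSL1 rose by 0.76 and fell by 0.67. All 7 also had a lower level with insulin in the H1047R pair, at -0.19 (ETV5) to -0.56 (SPRY1), and all 7 were called there. Other members did not return. ETV4 went down, from 49.7, 49.2 and 47.2 CPM to 27.2, 25.4 and 28.5 CPM, but its knockdown call, and so its place among genes that moved further, was kept in 2 of 9 fits that left out 1 library. The stress factor ATF3 held at 0.78, and MYC, called only with insulin, ended at -0.47.

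The 84 genes that fell first and ended near control had a median of -0.30 with knockdown and 0.26 with insulin, against 0.31 and -0.30 for the 213 that rose first. CD24, a surface sialoglycoprotein, had 108, 97.8 and 99.6 CPM with siNT, 72.8, 74.6 and 69.0 CPM with siRSAD2 and 103, 97.6 and 109 CPM with siRSAD2 + insulin. It has near-identical processed copies in the genome, which makes its count less certain than others. The interferon-induced SAMD9L went from -0.53 with knockdown to -0.10 ± 0.09 over both steps, and its siNT and siRSAD2 + insulin libraries overlapped. Without siNT library 6 or siRSAD2 + insulin library 2 its interval was too wide for the near-control definition. CENPE, a mitotic kinesin, ended at -0.15 ± 0.07, and passed at -0.26 without library 2 of siRSAD2 + insulin (edgeR adjusted p = 0.000677) and at -0.21 without siNT library 4. At the edge of the near-control definition, the intervals of FHL1 (-0.32 to 0.09) and TGFB2 (0.01 to 0.32) were just inside 0.32 of 0, and those of SLC22A23 (0.03 to 0.32) and GEMIN2 (-0.32 to 0.03) were just outside.

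**Figure D2:**
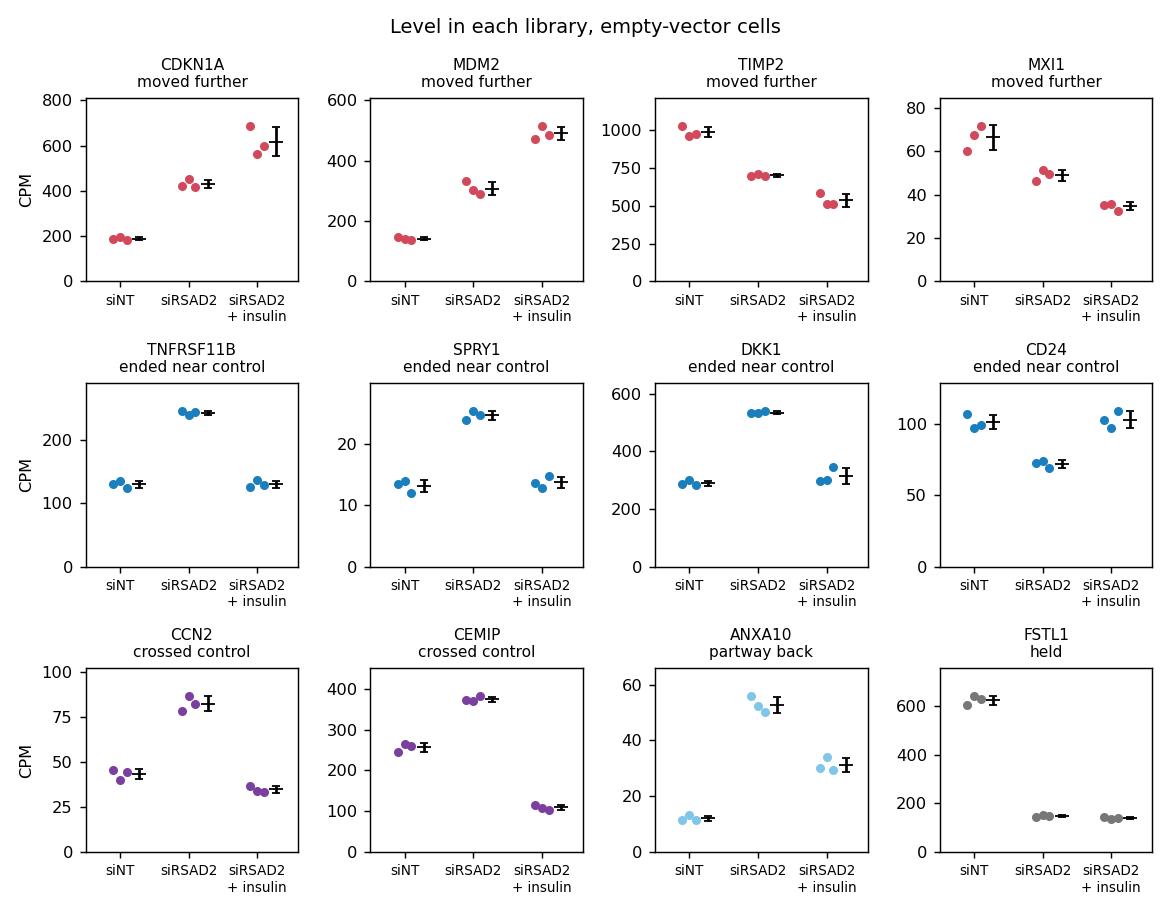
CPM in each library (vertical axes, from 0) of 12 genes in empty-vector cells with siNT and vehicle, siRSAD2 and vehicle, and siRSAD2 and insulin (horizontal axes). Points are libraries, and black bars give the mean and SD of 3 libraries. CDKN1A and MDM2 climb at both steps, TNFRSF11B, SPRY1 and DKK1 return after a rise, CCN2 and CEMIP end below control, ANXA10 returns in part and FSTL1 holds.

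Of the 47 genes that crossed control, 45 rose with knockdown and ended below control with insulin. CEMIP (chromosome 15, 80779343 to 80951776), which takes part in breaking down hyaluronan, had 245, 265 and 260 CPM with siNT, 373, 371 and 383 CPM with siRSAD2 and 115, 108 and 104 CPM with siRSAD2 + insulin. The 3 groups were fully apart. It rose by 0.55, then fell by 1.78, and ended 1.23 ± 0.06 below control on the log2 scale (edgeR adjusted p = 9.53e-16). The network collagen COL8A1 ended at -0.35 ± 0.07 after 0.43 and -0.78, the hyaluronan receptor CD44 at -0.45, the collagen crosslinking enzyme LOX at -0.29 and the tight junction gene CLDN1 at -0.46 ± 0.07. The knockdown call of CLDN1 was lost without siNT library 4 or 6 or siRSAD2 library 1 or 3. HHIP, an antagonist of Hedgehog ligands, had 8.65, 6.94 and 6.26 CPM with siNT, 24.5, 21.98 and 20.1 CPM with siRSAD2 and 4.11, 7.26 and 3.69 CPM with siRSAD2 + insulin. Its end groups overlapped, and its overall difference was -0.52 ± 0.17 (edgeR adjusted p = 0.027). That call was lost without siNT library 4 (-0.38, edgeR adjusted p = 0.191) or siRSAD2 + insulin library 1 (-0.37, 0.185) or 3 (-0.37, 0.15), and with unstranded counts. The 2 genes that crossed in the other direction were LONRF2 and the fatty acid binding protein FABP3, which ended at 0.30 ± 0.09 and 0.36 ± 0.09. LONRF2 did not pass over both steps without siNT library 5 (edgeR adjusted p = 0.0629), and FABP3 kept its knockdown call in 5 of 9 fits that left out 1 library.

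CCN2 (chromosome 6, 131948176 to 131951372), the connective tissue growth factor and a target of YAP and TEAD, had 45.5, 39.9 and 44.5 CPM with siNT, 78.5, 86.6 and 82.2 CPM with siRSAD2 and 36.8, 34.0 and 33.5 CPM with siRSAD2 + insulin. The end levels lay below all control levels. It rose by 0.93 with knockdown, fell by 1.24 with insulin and ended at -0.31 ± 0.06 (edgeR adjusted p = 0.000338). ANKRD1, another such target, had 7.44, 9.35 and 6.05 CPM with siNT and 9.16, 10.1 and 8.54 CPM with siRSAD2, which overlapped, and then 3.46, 4.21 and 4.64 CPM with insulin, an overall value of -0.91 ± 0.15. The related matrix protein CCN1 went from 185, 197 and 186 CPM with siRSAD2 to 123, 137 and 132 CPM with insulin, and the receptor tyrosine kinase AXL from 457, 447 and 457 CPM to 369, 333 and 333 CPM. Of the 25 measured YAP and TEAD targets, 10 were higher and 3 lower with knockdown, 0 were higher and 11 lower with insulin, and overall 4 were higher, 11 were lower and 10 did not pass. Over all genes, insulin called 2.1% higher and 4.19% lower. Knockdown called 9.82% higher and 9.72% lower, and over both steps 9.14% were higher and 11% lower. Without siNT library 6, 7 list members were lower over both steps. IGFBP3, which binds insulin-like growth factors, went against the list and held at 0.95 ± 0.07, as did GADD45A at 0.58.

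The promoters of CCN2 and ANKRD1 are shown because both carry more than 1 copy of the TEAD motif GGAATG and both genes fell with insulin. The 250 bases before each RefSeq start site (GRCh38.p14) are written 5′ to 3′ on the gene's strand, with GGAATG in capitals. CCN2 lies at chr6:131951373-131951622 and ANKRD1 at chr10:90921088-90921337, both on the minus strand.
CCN2: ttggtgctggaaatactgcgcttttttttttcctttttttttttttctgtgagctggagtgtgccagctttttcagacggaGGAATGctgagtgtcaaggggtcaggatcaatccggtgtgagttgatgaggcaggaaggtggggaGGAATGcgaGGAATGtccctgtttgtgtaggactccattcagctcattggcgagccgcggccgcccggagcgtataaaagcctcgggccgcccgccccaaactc
ANKRD1: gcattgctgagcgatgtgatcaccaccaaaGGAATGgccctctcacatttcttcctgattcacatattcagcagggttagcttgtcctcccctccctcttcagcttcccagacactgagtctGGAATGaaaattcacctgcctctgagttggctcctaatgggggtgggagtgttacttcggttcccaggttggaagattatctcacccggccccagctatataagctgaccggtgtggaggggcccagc
CCN2 held 3 matches and ANKRD1 2. On either strand of the 300-base window of the RefSeq table, which runs on past the start site, 7 of 18 list members with a promoter (38.9%) held the motif, against 14.05% of 27305 promoters. The other 5 were NUAK2, PTPN14, TGFB2, FOXF2 and LATS2, of which PTPN14 was called higher overall and LATS2 lower. NUAK2 held 2 matches and did not pass over both steps. AXL, AMOTL2 and MYOF, called lower with insulin, held no match. FOXO targets were searched in the same way for GTAAACA, which 5 of 32 (15.6%) held against 3.41% of all promoters. These were BCL2L11, YPEL3 and FOXO4, which were lower over both steps, TXNIP, which was higher (0.27), and TRIB2, which did not pass. PIK3IP1, MXI1, CCNG2, IGF1R, IRS2 and INSR held no match. A match describes the letters only.

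Of the 103 genes partway back, 79 rose first and 24 fell first. ANXA10, an annexin, had 11.6, 13.1 and 11.4 CPM with siNT, 55.9, 52.5 and 50.2 CPM with siRSAD2 and 30.3, 34.0 and 29.5 CPM with siRSAD2 + insulin, so the last lay between the other groups with no overlap. Its overall value was 1.38 ± 0.09. The scavenger receptor gene DMBT1 ended at 1.93 ± 0.17 after 2.71 with knockdown, and the collagenase MMP1 at 0.79 ± 0.26 after 2.28. The overall call of MMP1 was lost without siNT library 5 or 6, without siRSAD2 + insulin library 3 (0.47, edgeR adjusted p = 0.267), with unstranded counts and when fitted on the compared groups only. The protease inhibitor SERPINE2 ended at 0.57 after 1.17 and TFPI2 at 0.22 after 1.35. Among genes that fell first, the chemokine CXCL12 had 97.6, 97.7 and 95.5 CPM with siNT, 34.0, 36.2 and 31.0 CPM with siRSAD2 and 45.0, 44.3 and 38.7 CPM with siRSAD2 + insulin. EGR1, an immediate early transcription factor, regained more, from 27.2, 25.6 and 21.5 CPM with siRSAD2 to 52.3, 47.4 and 49.0 CPM, against 64.4, 58.5 and 60.7 CPM with siNT. CXCL12 and EGR1 ended at -1.18 ± 0.07 and -0.30 ± 0.07.

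Matrix and adhesion genes were spread over all classes. Of 76 measured, 35 were higher and 19 lower with knockdown, 3 were higher and 27 lower with insulin, and overall 24 were higher, 29 were lower and 23 did not pass, with a median of 0.01. A total of 26 held, 7 ended near control, 7 were partway back, 6 moved further and 4 crossed control. All genes tested had shares of 9.82% higher and 9.72% lower with knockdown and 2.1% and 4.19% with insulin. Over both steps these were 9.14% and 11%. The near-control members included the urokinase PLAU (0.62 and -0.61), the collagen receptor subunit ITGA2 (0.63 and -0.56) and THBS1 (0.55 and -0.50). Held members included the hyaluronan synthase HAS2 at 1.55, the integrin ITGB3 at -1.23 and the proteoglycan DCN at -0.98. Fibronectin, FN1, was called only with insulin and ended at -0.29.

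Inflammatory mediators were mostly lower or not called. Of 35 measured, 2 were higher, 11 were lower and 22 did not pass over both steps, with a median of -0.10. Shares over all genes tested were 9.14% higher and 11% lower. The long pentraxin PTX3 ended partway back at 0.63 after 1.47, the chemokine CXCL6 crossed control to -0.46, and VCAM1 held at -0.41 ± 0.05. CXCL8 rose by 1.13 and fell by 1.20, but the interval of its overall value of -0.07 was too wide to place it. NFKBIA, the inhibitor of NF-kB, held at -0.40.

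Other groups held their knockdown difference. Of 40 mitosis and cytokinesis genes 34 were lower over both steps, 0 higher and 6 did not pass, with a median of -0.25 against -0.34 in the knockdown step. A total of 30 held, 3 were partway back and 1 ended near control, and in the insulin step 4 were higher and 0 lower. The anillin gene ANLN had 865, 899 and 919 CPM with siNT, 673, 669 and 675 CPM with siRSAD2 and 623, 713 and 627 CPM with siRSAD2 + insulin, and CCNA2, a cyclin, fell by 0.40 ± 0.05 overall. Both groups with RSAD2 siRNA lay below siNT and overlapped each other. Of 42 replication and S-phase genes 20 were lower, 3 were higher (1 without siNT library 5) and 19 did not pass. Beside both lists, 9.14% of all genes tested were higher and 11% lower over both steps. With insulin 2.1% were higher and 4.19% lower.

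Promoters of 3 mitosis genes that held are shown because each carries the cell cycle homology region, TTTGAA, close before its start. The 100 bases before the RefSeq start (GRCh38.p14, plus strand) are given with TTTGAA in capitals, for PLK1 at chr16:23678789-23678888, CCNB2 at chr15:59105046-59105145 and KIF23 at chr15:69414249-69414348.
PLK1: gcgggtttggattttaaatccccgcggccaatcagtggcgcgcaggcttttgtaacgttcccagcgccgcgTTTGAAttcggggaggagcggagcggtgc
CCNB2: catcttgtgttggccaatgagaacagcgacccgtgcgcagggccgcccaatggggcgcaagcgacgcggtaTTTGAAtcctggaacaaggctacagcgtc
KIF23: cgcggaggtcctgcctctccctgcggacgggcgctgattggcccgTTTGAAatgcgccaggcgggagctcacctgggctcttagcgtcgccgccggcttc
These encode a mitotic kinase, a B-type cyclin and a kinesin of cytokinesis, and their overall values were -0.27, -0.19 and -0.29. Of 34 list members with a promoter, 24 (70.6%) held TTTGAA on either strand, against 15.4% of all promoters. Here too a match describes the letters only.

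Of 36 sterol and fatty acid synthesis genes, 18 were lower, 2 were higher and 16 did not pass, 16 held, and 2 ended near control. Among all genes tested 11% were lower, 9.14% were higher and 1.28% ended near control. FDPS, a farnesyl diphosphate synthase, had 448, 456 and 446 CPM with siNT, 275, 289 and 292 CPM with siRSAD2 and 289, 295 and 287 CPM with siRSAD2 + insulin. It ended at -0.63 ± 0.04, and the desaturase SCD at -0.43 ± 0.04. HMGCS1, the synthase of the mevalonate pathway, was partway back at -0.56 ± 0.05, and held instead without siRSAD2 library 1 or 3 or siRSAD2 + insulin library 2. EBP, a sterol isomerase, moved further down to -0.45. The sterol motif TCACNCCAC was found in 1 of 28 promoters (3.57%) against 1.15% of all, and that 1 was SREBF2.

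Of 78 genes for cytosolic ribosomal proteins, 60 were lower over both steps, 0 were higher and 18 did not pass, with a median of -0.26. In the insulin step 0 were called in either direction, and 52 held. RPL3 had 963, 1006 and 982 CPM with siNT and 728, 635 and 645 CPM with siRSAD2 + insulin, with no overlap. These genes have many processed copies, so their counts depend on how shared reads were handled. Of 69 interferon response genes, 23 were lower, 8 were higher (5 without siNT library 5) and 38 did not pass, and 19 held, among them the antigen presentation gene B2M (-0.38 ± 0.05). IFIT1 was partway back at -0.28. Chaperones and other genes of the unfolded protein response had 9 members higher, 5 lower and 21 not passing, and HSPA5, the ER chaperone BiP, held at 0.33 ± 0.04. Shares over all genes tested, to be set beside both lists, were 9.14% higher and 11% lower. The ER stress element, spaced CCAAT and CCACG, was found in 7 of 31 promoters of the unfolded protein response list (22.6%) against 0.0806% of all. Of these genes HSPA5 and XBP1 were called over both steps, while ERO1B, CANX, HSP90B1, CALR and CRELD2 were not. The share describes the letters and does not show which genes changed.

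**Figure D3:**
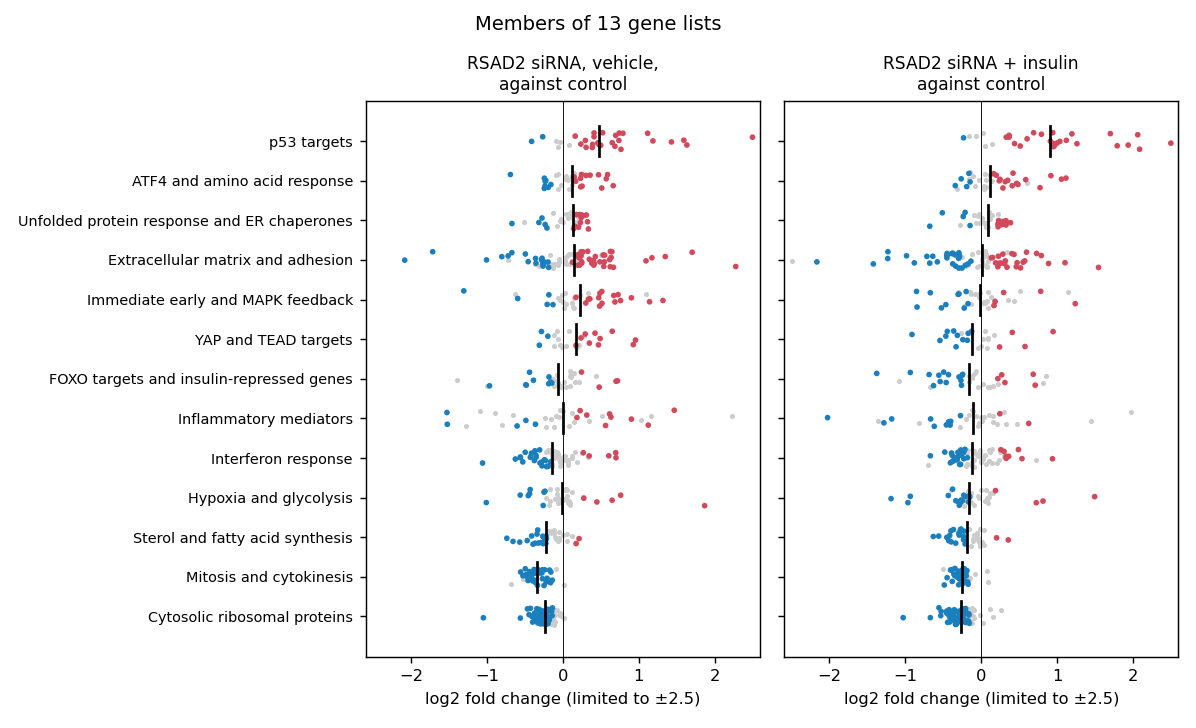
Log2 fold change (horizontal axes) of the measured members of 13 gene lists (vertical axis) for RSAD2 siRNA with vehicle against control (left) and RSAD2 siRNA with insulin against control (right). Points are genes, red where called higher, blue where called lower and grey where not called, and black bars are medians. The median of p53 targets was 0.48 on the left and 0.91 on the right, and that of YAP and TEAD targets 0.17 and -0.12.

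A set of 470 genes was called in the insulin step and overall but not with knockdown, 310 lower and 160 higher. GAB2, a docking adaptor of receptor signalling, had 15.4, 17.2 and 16.6 CPM with siNT, 14.5, 15.7 and 15.3 CPM with siRSAD2 and 7.97, 9.14 and 9.17 CPM with siRSAD2 + insulin. Its overall value was -0.91 ± 0.10. NOG, an antagonist of bone morphogenetic proteins, fell by 1.13 with insulin and ended at -0.83 ± 0.14. COL15A1, a basement membrane collagen, rose by 0.96 with insulin, from 1.14, 1.46 and 0.972 CPM to 2.20, 3.01 and 1.67 CPM, and its insulin call was lost without siRSAD2 library 1 or 3 or siRSAD2 + insulin library 2. Of 40 hypoxia and glycolysis genes, 18 were lower over both steps, 4 were higher and 18 did not pass. They included the mitophagy receptors BNIP3L, which held at -1.19 ± 0.06, and BNIP3, called only with insulin, at -0.43. The shares of all genes tested, to be set beside the hypoxia and glycolysis counts, were 11% lower and 9.14% higher.

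The insulin step was set beside the insulin comparison in H1047R cells, whose fold changes come from other libraries, although the model that set the classes took its spread from all 15. In that comparison 112 genes (0.483%) were called higher and 461 (1.99%) lower, 573 in all. Fitted on the H1047R pair only, 1272 were called, and 354 to 416 when 1 of its libraries was left out, so the shares called below depend on the fit. Over all genes tested, insulin moved 59.0% in the same direction in both pairs. Of the 213 genes that rose with knockdown and ended near control, 198 were also lower with insulin in H1047R cells, and 90 (42.3%) were called lower there. Of the 84 that fell first, 70 were higher, and 7 (8.33%) were called higher. Among genes that moved further, 90 of 91 risers and 125 of 127 fallers kept their direction, with 27 (29.7%) called higher and 65 (51.2%) called lower. All 45 genes that rose and then crossed control were lower with insulin in the H1047R pair, and 41 (91.1%) were called. For genes that held, whose insulin step was not called, the share in the same direction was 62.5%. Genes called with insulin but not with knockdown kept their direction in 434 of 470 (92.3%) where the difference over both steps was also called. Where it was not, 155 of 186 (83.3%) did. High shares were therefore also found for insulin calls without a knockdown call, and are not particular to the classes above. With the classes set by the 9 empty-vector libraries alone and the H1047R pair fitted alone over the same 23184 genes, an alternative chosen after seeing the data, 402 genes (1.73%) were called higher and 882 (3.80%) lower with H1047R. There 151 of 157 genes that rose and ended near control were lower with insulin in H1047R cells (104 called), 48 of 49 that rose in both steps were higher (31 called), 83 of 84 that fell in both steps were lower (62 called), and all 34 that rose and crossed control were lower (34 called). Over all genes 59.0% moved in the same direction.

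Single genes followed these counts in part. With insulin in H1047R cells CEMIP changed by -1.41, CCN2 by -1.0, TNFRSF11B by -0.67, CDKN1A by 0.43 and MDM2 by 0.36, all called. C3 changed by -0.12, KLF9 by 0.13, SLC7A11 by 0.15 and SAMD9L by 0.21, none called. A test of the difference between the insulin responses of H1047R and empty-vector cells called 0 genes in edgeR, with a smallest adjusted p of 0.493 and 1611 genes at an unadjusted p below 0.05. No gene is therefore described as differing between the pairs.

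**Figure D4:**
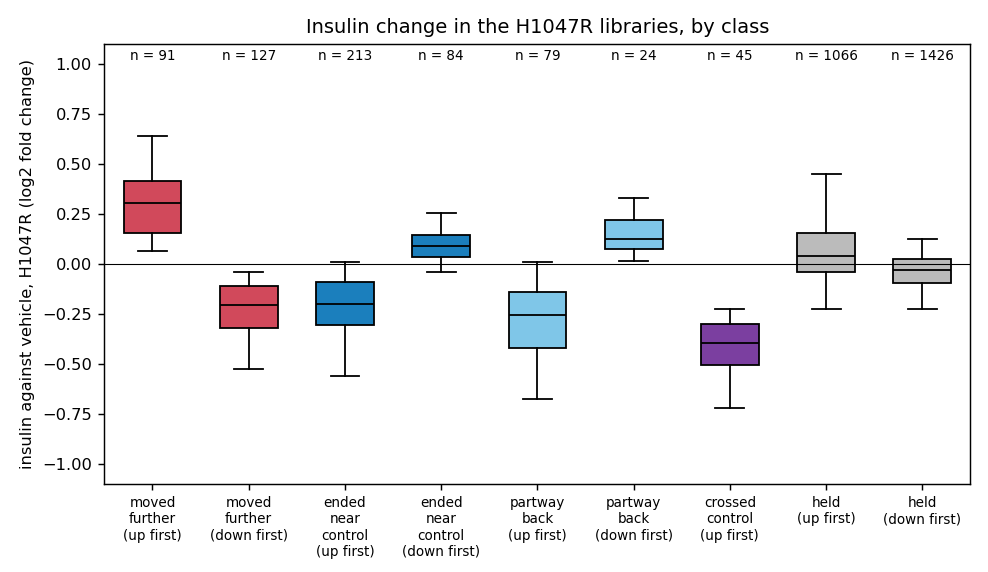
Log2 fold change of insulin against vehicle in RSAD2 siRNA cells with H1047R (vertical axis) for genes grouped by their class in the empty-vector libraries and by the direction of the knockdown step (horizontal axis). Boxes span the quartiles with the median, and whiskers the 5th to 95th percentile of genes, not replicate error. Genes that crossed control have a median of -0.39, and genes that rose at both steps one of 0.30.

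The epithelial label was checked against markers. The keratins KRT8, KRT18 and KRT19 had 1129, 708 and 502 CPM with siNT, while EPCAM and CDH1, which mark most epithelia, had 0.27 and 0.78 CPM, and the mesenchymal VIM had 2372 CPM. Summed epithelial markers were 2580 to 2624 CPM with siNT and 1953 to 2253 CPM with siRSAD2 + insulin, and of 20 measured 7 were lower and 1 higher, led by the keratins KRT8 (-0.36 ± 0.05) and KRT18 (-0.35 ± 0.05). Summed stromal markers, which these cells also express and which include VIM, were 3123 to 3160 CPM and 2158 to 2314 CPM, with 6 of 17 lower and 4 higher. Endothelial markers summed to 17.9 to 19.1 CPM and 26.0 to 28.6 CPM, with 3 of 11 higher. Immune markers summed to 4.64 to 6.78 CPM and 4.51 to 6.02 CPM, with 0 of 10 called. Of these, 6 endothelial and 8 immune genes averaged under 10 counts per library. Called shares among all genes tested were 9.14% higher and 11% lower. The part of these shifts in the other results was not tested. In bulk libraries, fewer cells of a type and less RNA per cell cannot be told apart.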

How the data were processed

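Per the labels, poly(A) libraries were made from 500 ng of total RNA. The authors deposited raw read counts per gene for each library, without normalisation, and the submitters' processing notes name cutadapt, Trim Galore, FastQC, STAR and the build hg38. Versions were not given in the sources used here, and the methods name an annotation release numbered as a mouse release, while the gene IDs are human. The reverse-stranded counts were used, as in the study. Of 60617 gene IDs, 60357 matched GENCODE release 44, which gave symbols and hg38 coordinates. Summary entries (unmapped, multimapping, outside genes, ambiguous), 22.2% to 30.5% of each library, were kept apart.

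The 23184 genes that averaged 1 count or more over the libraries were tested. A single model with 1 coefficient for each of the 5 groups was fitted to all 15 libraries by the quasi-likelihood F test of edgeR 4.0.16 under R 4.3.3, with TMM scaling and 10 residual degrees of freedom. Its p-values, adjusted by the Benjamini-Hochberg method over all genes, measure the spread between libraries, which may be technical in part. The common biological coefficient of variation was 0.0571. Intervals are the log2 fold change plus or minus the t quantile times its SE, at 95%. The fit and the classes were run on simulated counts drawn gene by gene from the fitted spread. No simulated library stood apart, so the run does not bear on the libraries here that did.

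The genes and the 23 lists (854 entries, 833 tested) were chosen with earlier results of these data known. Named genes were RSAD2 and CDKN1A, the 10 largest overall rises and falls at 1 CPM or more with groups that do not overlap, the 6 largest first steps per class and direction (second steps for genes called only then), and 3 members per list with the smallest p. List members named beyond these were chosen after their values were seen. No list was tested as a set. Alternatives were DESeq2 1.42.0, RLE factors, other count filters, a threshold of 0.001, unstranded counts, only the compared groups, a wider near-control margin (0.58 on the log2 scale), the omission of each library and a block for the replicate number. Promoters came from RefSeq (GRCh38.p14), by symbol.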

Additional observations from a re-analysis of the deposited data

How the results depend on the processing

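At a threshold of 0.001 the overall comparison called 1944 genes, the knockdown 1761, insulin 353 and insulin with H1047R 205, while 76 genes ended near control, 40 moved further and 285 list members were called overall (437 at 0.05). Fitted on the compared groups only, insulin called 520 genes and insulin with H1047R 1272, and with the 3 empty-vector groups 186 ended near control and 132 moved further. Leaving out each library in turn gave 3730 to 4749 overall calls, 3413 to 5241 knockdown calls, 947 (without siRSAD2 library 3) to 1844 insulin calls and 385 to 444 list members. In the H1047R pair 354 to 416 genes were called without 1 library, against 573. Genes near control numbered 200 to 383 and those that moved further 128 to 258. Without siRSAD2 library 3 and siRSAD2 + insulin library 2 together, added after the data were seen, 197 ended near control. Deviations of libraries with the same number had correlations of -0.127 to 0.156. Between siRSAD2 + insulin and H1047R with insulin they were 0.156, 0.138 and 0.0871, and within the H1047R pair -0.0285, -0.127 and -0.0255. Libraries with unlike numbers were not compared in this way, so pairing by number was not tested. With the replicate block 4697 genes were called over both steps, 297 ended near control and 227 moved further. The control libraries share no number with the others, so the block acts within RSAD2 siRNA libraries only. DESeq2, RLE factors, count filters and unstranded counts kept each of these counts within 1.5 times, and no called overall value of a named gene reversed under any alternative run. Uncalled values close to 0, such as those of KCNAB1, TNFRSF11B, CD24 and ZNF90, changed sign when single libraries were left out. The gene-wise overall call was weaker in 72 and stronger in 7 of the alternative values of named genes, mostly genes near 1 CPM. Without siRSAD2 + insulin library 2, 7 ribosome biogenesis genes (4 with all libraries) and 4 mitochondrially encoded genes (1 with all) were lower overall. Without siNT library 5, 5 ribosome biogenesis genes were higher (9 with all libraries), and without siNT library 6, 2 stromal markers were (4 with all). The wider margin placed 343 genes near control. The shallowest library had 16.1 M counts, and genes under 1 CPM, such as KANK3 with siNT, rest on few counts.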

Other observations

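Replication-dependent and linker histone genes, which mostly lack poly(A) tails, were measured through their polyadenylated transcripts. Of 38 measured, 7 were higher over both steps, 0 were lower and 31 did not pass, with a median of 0.31. Among all genes tested 9.14% were higher and 11% lower. H2BC12 had 47.5, 47.6 and 41.5 CPM with siNT and 95.9, 93.0 and 90.3 CPM with siRSAD2 + insulin, and the linker histone H1-2 had 42.3, 41.4 and 41.8 CPM against 76.8, 79.0 and 86.7 CPM. Neither gene's groups overlapped. Histone genes have near-identical copies, so reads could be split among them.

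Small RNA machinery genes had 3 of 13 members higher and 3 lower. AGO2, the slicing Argonaute through which siRNAs act, had 112, 102 and 107 CPM with siNT and 75.9, 78.5 and 81.3 CPM with siRSAD2 + insulin, a fall of 0.44 ± 0.06, while AGO3 rose by 0.39 ± 0.08. Of 49 ribosome biogenesis genes 9 were higher and 4 lower. Among 15 mitochondrially encoded genes 2 were higher and 1 was lower, against 9.14% and 11% of all genes. MT-ND6, called higher at 0.57, had 230 CPM in library 2 of siRSAD2 + insulin against 123 and 83.2 CPM in the other two. Without library 2 its value was 0.09 (edgeR adjusted p = 0.668), and with unstranded counts 0.08 (edgeR adjusted p = 0.566). Of 44 insulin and PI3K pathway genes, 6 were higher and 15 lower overall. PIK3CB, a catalytic subunit of PI3K, held at -0.79 ± 0.07, with 61.4, 57.6 and 65.1 CPM against 36.6, 34.6 and 35.4 CPM, and IGFBP5 held at 0.75 ± 0.07.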
